A study of Oryza sativa with 6 samples.

Results

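The edges of H3K4ac and H3K9ac peaks were compared in 21583 pairs of peaks from rice leaves. A pair was 1 peak of each list that overlapped by at least 1 bp, with neither peak overlapping a further peak of the other list. The pairs held 84.9% of the 25425 H3K4ac peaks and 80.9% of the 26693 H3K9ac peaks, out of 82347 peaks in the lists of 6 histone marks. H3K4ac reached further out than H3K9ac at both ends of most pairs. The median H3K4ac peak extended 123 bp beyond H3K9ac on the left and 126 bp on the right, and H3K9ac lay wholly inside H3K4ac in 78.5% of the pairs.

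The tissue was leaves of 2-week-old greenhouse seedlings of the cultivar Nipponbare, a japonica rice, with no treatment named, and nuclei were isolated from ground tissue. Chromatin was immunoprecipitated with commercial antibodies against H3K4ac, H3K9ac, H3K27ac, H3K27me3, H3K9me1 and H3K9me3 and sequenced, with 1 library for each mark. All groups share the cultivar, age and tissue, and the antibody is the only difference that the labels name. With 1 library per mark, a difference between marks cannot be told apart from a difference between libraries. The labels name the source as leaves and the tissue as seedling. The tissue mixes many cell types, so each edge is called from the summed signal of many cells, and the labels do not say how many seedlings were pooled.

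Acetylation of lysines on the tail of histone H3 neutralises their positive charge and is found on nucleosomes at the promoters and first part of transcribed genes. H3K4ac and H3K9ac are both such marks, laid on the same histone tail by acetyltransferases and removed by deacetylases. H3K27me3 is the mark of Polycomb repression, and the study counts H3K9 methylation among the repressive marks. In ChIP-seq, fragments with the mark pile up over the marked nucleosomes, and the peak caller lists the stretches where the pile passes its cutoff over background. The edge therefore depends on the mark, on the fragment length, on the depth of the library and on the settings of the caller.

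Each list gave the start, the end and a score for each peak, by which the peak caller ranked it. The lists carry no strand and name no genome build, so left means the lower coordinate, and it is arbitrary with respect to genes. No gene could be placed beside a pair. With 1 library per mark there is no replicate check, pairs are not replicates, and no test between marks was made. Intervals in parentheses are 95% Wilson intervals of a share and cover counting error only. The read depth of the libraries is unknown.

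Peaks outside the pairs were of 3 kinds. No H3K9ac peak was met by 3217 H3K4ac peaks, or 12.7% of their list, and no H3K4ac peak by 3961 H3K9ac peaks, or 14.8%. These were low in their lists, with a median score percentile of 13.4 for H3K4ac and 13.8 for H3K9ac, against 55.7 and 58.2 for the members of pairs. A further 560 H3K4ac peaks spanned 2 or more H3K9ac peaks, 5 of them spanning 3, and their median width was 2017.5 bp. The reverse was seen for 41 H3K9ac peaks, with a median width of 1727 bp. The remaining 65 H3K4ac and 1108 H3K9ac peaks overlapped 1 peak that itself met another. Long acetylated stretches that are listed as 1 peak for H3K4ac and as several for H3K9ac are thus outside the pairs.

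Within the pairs the H3K4ac peak had a median width of 1196 bp (quartiles 1041 and 1431) and the H3K9ac peak of 923 bp (761 and 1156). The median difference, H3K4ac minus H3K9ac, was 261 bp (153 and 384), and the median ratio of the widths was 1.27. H3K4ac was the wider peak in 92.5% of the pairs (92.2 to 92.9%), H3K9ac in 7.41%, and 9 pairs had equal widths. The difference was 500 bp or more in favour of H3K4ac in 2552 pairs, and in favour of H3K9ac in 98. The difference ran from -2235 bp, where H3K9ac was wider, to 5050 bp.

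Both edges gave nearly the same distribution. The left extension of H3K4ac had quartiles of 56 and 199 bp and 5th and 95th percentiles of -72 and 360 bp. For the right extension the quartiles were 62 and 207 bp, and the percentiles -78 and 376 bp. A negative value means that H3K9ac reached further. On the left edge, H3K4ac was further out by 1 to 99 bp in 28.4% of the pairs, by 100 to under 200 bp in 34.6%, by 200 to under 500 bp in 21.5% and by 500 bp or more in 3.33%. On the right edge the shares in the same order were 27.5%, 34.6%, 23.3% and 3.39%. H3K9ac was further out on the left in 1.53% of the pairs by 200 bp or more, in 2.34% by 100 to under 200 bp and in 8.03% by 1 to 99 bp. Counted in steps of 20 bp, the left edges thinned slowly from 491 pairs around 270 bp to 295 around 350 bp and then fell to 63 around 390 bp, and the right edges went from 499 to 257 and to 92, so that a shoulder ended below 400 bp and a thin tail of long extensions ran beyond it. The edge fell on the same base in 53 pairs on the left and 45 on the right, and no pair shared both edges.

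**Figure D1:**
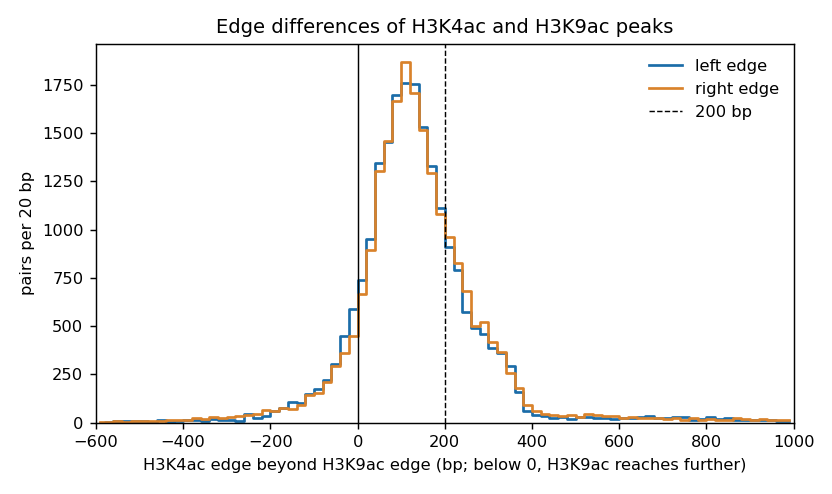
Number of pairs per 20 bp of edge difference (x axis, bp by which H3K4ac reaches beyond H3K9ac) for the left and the right edge of 21583 pairs; the dashed line marks 200 bp. Both curves rise on the side where H3K4ac is further out and have medians of 123 and 126 bp.

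Nesting followed from these edges. H3K9ac lay inside H3K4ac in 16953 pairs, 78.5% (78.0 to 79.1%), of which 82 shared 1 edge. H3K4ac lay inside H3K9ac in 323 pairs, 1.50% (1.34 to 1.67%), where it was narrower by a median of 163 bp. The other 4307 pairs, 20.0% (19.4 to 20.5%), were staggered, with H3K4ac displaced to the left in 2052 and to the right in 2255. In the staggered pairs H3K9ac overhung by a median of 62 bp and H3K4ac by a median of 140 bp at the opposite end. The H3K9ac overhang was under 50 bp in 43.3% of them. Nearly all pairs overlapped deeply, and in only 15 of 21583 was the overlap under 50% of the shorter peak.

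An edge difference of exactly 44 bp was listed more often than its neighbours. On the left, 139 pairs had a difference of 44 bp, while the 20 offsets within 10 bp of it had a mean of 59.3 pairs and at most 84. On the right the count was 138, with a mean of 57.8 and at most 83 at the neighbouring offsets. The same was seen with the third acetylation mark. H3K27ac reached beyond H3K9ac by exactly 44 bp in 67 pairs on the left and 60 on the right, against neighbouring means of 28.8 and 25.45. Between H3K4ac and H3K27ac the most frequent single difference from -100 to 150 bp was 0 bp, with 59 pairs on the left and 77 on the right, against 20.6 and 16.5. A smaller excess at 0 bp was also present between H3K4ac and H3K9ac, with 98 edges, left and right summed. These single-base maxima hold few of the edges. A difference of 44 bp on at least 1 edge was listed in 276 pairs of H3K4ac and H3K9ac, or 1.28% (1.14 to 1.44%), and on both edges in 1 pair. The search for such offsets was made after the edge values had been seen.

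**Figure D2:**
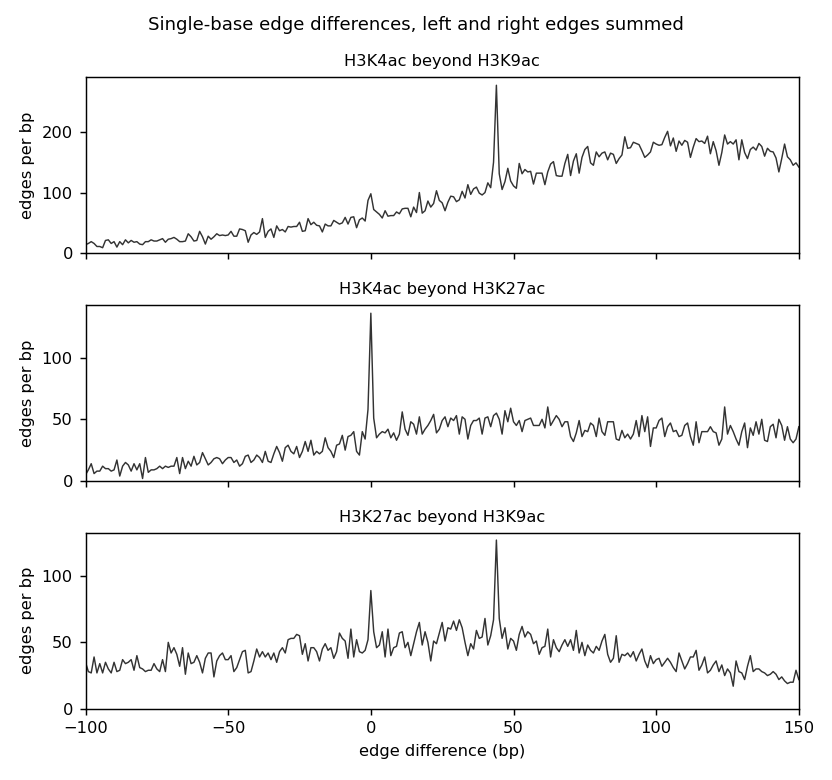
Number of edges (left and right summed) at each edge difference between -100 and 150 bp for 3 sets of pairs, with the mark named first reaching beyond the second. Single-base maxima stand at 44 bp for H3K4ac and for H3K27ac beyond H3K9ac (277 and 127 edges), and at 0 bp for H3K4ac beyond H3K27ac (136 edges).

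The fragment length that the peak caller assumed for each library is not given in the sources used here, and its part in the 44 bp was not tested. The shortest peak listed was 451 bp for H3K4ac, 369 bp for H3K27ac and 221 bp for H3K9ac. When every H3K4ac peak was shortened by 44 bp at each end, the median extension of H3K4ac was 79 bp on the left and 82 bp on the right. H3K9ac was then nested in 64.1% of the pairs, and the median width difference was 172 bp. When 115 bp were taken from each end, which is the difference of the shortest H3K4ac and H3K9ac widths shared between 2 ends, the medians fell to 8 and 11 bp and H3K9ac was nested in 29.2%. The size of the offset, and so the share of nested pairs, therefore depended on how much of it is counted as belonging to the mark.

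To count extensions, H3K4ac was called extended at an edge where it reached at least 200 bp beyond H3K9ac, the lower end of the fragment sizes selected for the libraries. H3K4ac was extended on 1 side in 38.1% of the pairs (37.5 to 38.8%; 8231 pairs), on both sides in 6.69% (6.36 to 7.03%; 1443 pairs) and on neither in 55.2% (54.5 to 55.8%; 11909 pairs). Of the pairs with neither, 11354 had all edges within 200 bp of each other. H3K9ac was extended by at least 200 bp on 1 side in 3.60% of the pairs and on both sides in 8 pairs. In 229 pairs each mark was extended, H3K4ac at one end and H3K9ac at the other. In the pairs with a 1-sided H3K4ac extension, the extended edge was a median of 277 bp out (quartiles 231 and 344) and the other edge 92 bp (36 and 139). The edge that was not called extended was thus also outside H3K9ac in most of them, and 6903 of the 8231 lay from 0 to under 200 bp out.

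The shares turned with the length counted. At 1 bp, H3K4ac was extended on both sides in 78.2% of the pairs and on 1 side in 20.3%. At 100 bp the shares were 36.5% and 47.8%, and at 500 bp 0.153% and 6.41%. With the H3K4ac peaks shortened by 44 bp at each end, 28.5% were extended on 1 side by 200 bp or more and 2.82% on both.

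**Figure D3:**
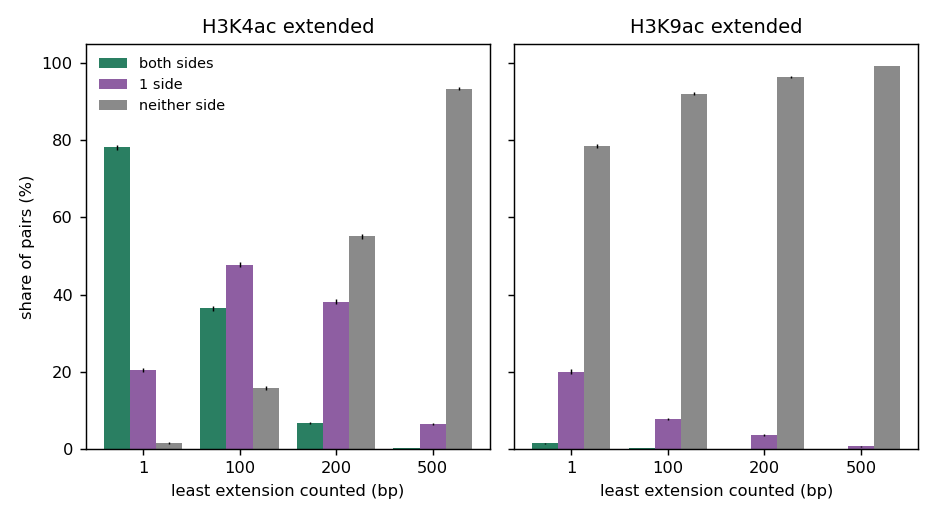
Share of the 21583 pairs (y axis, %) in which H3K4ac (left) or H3K9ac (right) reached beyond the other mark on both sides, 1 side or neither, by the least extension counted (x axis, bp); bars start at 0 and the thin lines on them are 95% Wilson intervals. At 200 bp H3K4ac was extended on 1 side in 38.1% and H3K9ac in 3.60%.

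Over all pairs the extensions at the 2 ends were not correlated. Across the 21583 pairs Spearman's rho between left and right extension was -9.14e-05, as a description over pairs that share 2 libraries. The share extended on both sides by 200 bp or more, 6.69%, was close to the 6.62% given by the product of the shares extended on the left (24.8%) and on the right (26.7%). At 100 bp the values were 36.5% and 36.4%. At 500 bp both sides were extended in 33 pairs, 0.153% (0.109 to 0.215%), against a product of 0.113%. Within groups of similar H3K9ac width, which is itself part of both differences, rho was negative in all 10, between -0.196 and -0.012, and within groups of similar H3K4ac width in 9 of 10, between -0.099 and 0.013. Left and right extension differed by a median of 112 bp, and by under 100 bp in 45.6% of the pairs.

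Right extensions were slightly more frequent than left ones. Of the pairs extended on 1 side, 47.6% were extended on the left (46.5 to 48.6%), and right-only pairs outnumbered left-only pairs on 11 of 12 chromosomes. The share was 47.6% at 1 bp, 48.1% at 100 bp and 49.5% (46.9 to 52.1%) at 500 bp. The median midpoint of H3K4ac lay 3 bp to the right of that of H3K9ac, and after the H3K4ac list had been moved left by 3 bp the share was 49.4%. Among 1-sided H3K9ac extensions of 200 bp or more the right was also more frequent, with 322 of 776 on the left (41.5%, 38.1 to 45.0%). This was not so at 500 bp, where 79 of 148 were on the left (53.4%, 45.4 to 61.2%). At 1 bp the left was more frequent, with 2261 of 4323 (52.3%, 50.8 to 53.8%). At 100 bp it held 792 of 1659 (47.7%, 45.3 to 50.1%). In the pairs of H3K27ac with H3K4ac and with H3K9ac, the left held 47.5% and 46.9% of the 1-sided extensions. Since left and right carry no direction of transcription, none of these shares speaks to gene orientation.

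The extension varied with the strength of the peaks, and differently for the 2 scores. The H3K9ac and H3K4ac scores of a pair went together (Spearman's rho 0.849), as did the widths (0.722), while the width difference had a rho of -0.047 with the H3K9ac score and 0.044 with the H3K4ac score. In 10 groups of nearly equal size by H3K9ac score, the median H3K9ac width rose from 709 to 1125 bp and the median H3K4ac width from 1033 to 1418 bp. The median width difference was 313 bp in the lowest group, 239 bp in the fifth and 280 bp in the highest. H3K4ac was extended on 1 side in 46.2% of the lowest group (44.1 to 48.3%), 34.7% of the fifth and 39.6% of the highest. On both sides it was extended in 11.6%, 5.23% and 7.32%. Grouped by H3K4ac score the lowest group was the least extended, with 32.8% on 1 side (30.9 to 34.8%), 4.49% on both (3.70 to 5.45%) and a median width difference of 217 bp. The fourth group reached 41.1%, 8.25% and 275 bp, and the highest had 35.7%, 5.70% and 258 bp. Weak H3K9ac peaks were thus exceeded more often than those in the middle of their list, and weak H3K4ac peaks exceeded H3K9ac less often. Score also went with the width of the same peak, with a rho of 0.447 for H3K4ac and 0.422 for H3K9ac. Grouping by the score of 1 mark therefore also sorts the pairs by its width, which is part of the difference. The part of width in these shares was not tested.

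Extensions were longest in the pairs where H3K4ac ranked furthest above H3K9ac. Pairs were grouped by the H3K4ac percentile minus the H3K9ac percentile, each taken within its own list. In the lowest group, with a median of -28.1 points, the width difference had a median of 214 bp. In the highest, with a median of 23.5 points, it was 352 bp, and 14.0% of these pairs were extended on both sides (12.6 to 15.5%), against 4.63% of the lowest group. From group 3 to group 8 the median width difference was nearly flat, between 251 and 264 bp, and group 9 had 279 bp. Spearman's rho between percentile difference and width difference was 0.159 over all pairs. Among pairs whose percentiles differed by at most 10 points the median width difference was 257 bp, and 36.8% were extended on 1 side and 5.99% on both. Pairs of nearly equal rank thus had about the same median width difference as all pairs. Equal rank is not equal signal, since each percentile is taken within its own list and the read depth is unknown. Score also went with the width of the same peak, so grouping by percentile difference also sorts the pairs by width. The part of peak strength in the width difference was not tested.

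Width has to be read with care, because it is itself part of the difference. Grouped by H3K9ac width, the narrowest group was extended on both sides in 23.8% and the widest in 3.10%. Grouped by H3K4ac width the order turned, with 0.787% in the narrowest group and 11.6% in the widest. Grouped by the mean of both widths, the median difference was 272 bp in the lowest group and 239 bp in the highest, and the rho over all pairs was -0.038. The median excess of H3K4ac over these groups was thus close to a constant number of base pairs, not a constant proportion. At a mean width of 750.5 bp the medians of the widths were 881 and 598 bp, and at 1923 bp they were 2090 and 1788 bp. Single pairs were less uniform. The quartiles of the difference were 167 and 387.5 bp in the lowest group and 99 and 433 bp in the highest. H3K9ac was nested in 82.2% and 69.8%.

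**Figure D4:**
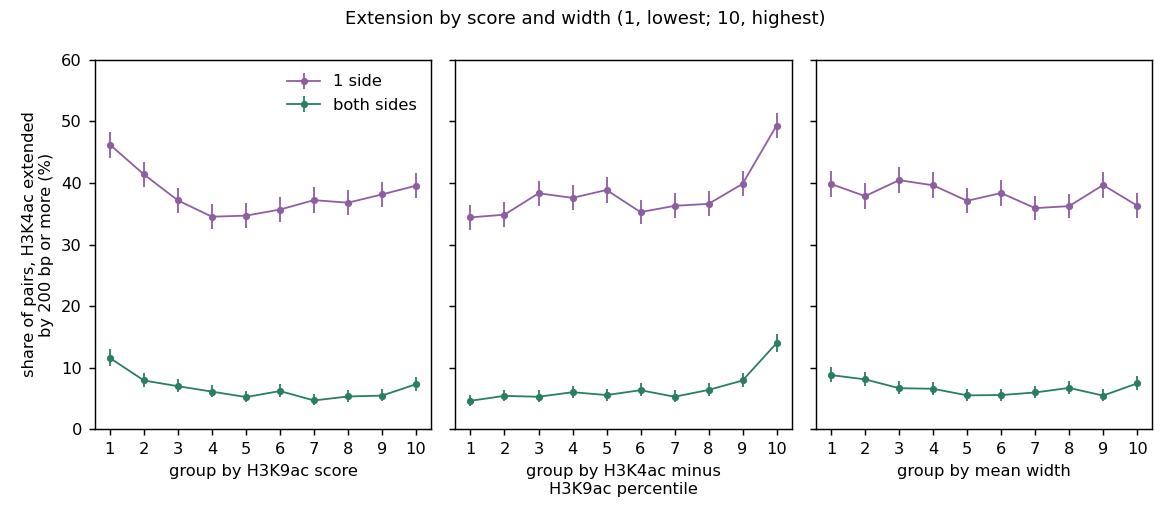
Share of pairs (y axis, %) in which H3K4ac was extended by 200 bp or more on 1 side or on both, in 10 groups of nearly equal size by H3K9ac score, by H3K4ac minus H3K9ac percentile and by mean width; bars are 95% Wilson intervals. By H3K9ac score the 1-sided share falls from 46.2% in the lowest group to 34.5% in the fourth and is 39.6% in the highest, and it reaches 49.3% where H3K4ac ranks highest above H3K9ac.

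The medians and most shares differed little between chromosomes, and the 2-sided share differed more in proportion. The median extension of H3K4ac ran from 118 to 130 bp on the left and from 118 to 137 bp on the right. The median width difference ran from 251 bp on chromosome 1, with 2852 pairs, to 274 bp on chromosome 12, with 1339 pairs. The 1-sided share ran from 36.6% on chromosome 1 to 40.1% on chromosome 12, and the 2-sided share from 5.40% on chromosome 1 (4.63 to 6.29%) to 8.15% on chromosome 11 (6.83 to 9.71%). Nesting of H3K9ac was least frequent on chromosome 1, at 76.3%, and most frequent on chromosome 8, at 81.0%.

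H3K27ac, the third acetylation mark, was not used to form the pairs. At 8323 pairs 1 H3K27ac peak covered part of the stretch shared by the pair, no other H3K27ac peak touched the pair, and the H3K27ac peak touched no other pair. There the median widths were 1292 bp for H3K4ac, 1028 bp for H3K9ac and 991 bp for H3K27ac, and H3K4ac was the widest of the 3 in 84.8% (84.0 to 85.5%). The left edge of H3K27ac lay inside both other edges in 46.1% of these pairs, on or between them in 38.5% and beyond both in 15.4%. The right edge gave 48.5%, 37.4% and 14.1%. Relative to H3K9ac, the H3K27ac edge was a median of 6 bp out on the left and 4 bp in on the right, so the edges of H3K27ac and H3K9ac had nearly the same medians.

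Where H3K4ac was extended on 1 side, H3K27ac leaned to the same side. At 2999 pairs with a 1-sided extension, H3K27ac reached further beyond H3K9ac on the extended side in 66.2% (64.5 to 67.9%) and on the other side in 33.6%. For left extensions the share was 68.1% and for right extensions 64.4%. Among the 4846 pairs extended on neither side, H3K27ac reached further on the left in 51.3% and on the right in 48.5%. The H3K27ac edge was a median of 52 bp out on the extended side and 17 bp in on the other, while the H3K4ac edge was 275 and 95 bp out. It passed 200 bp on the extended side in 19.7% (18.4 to 21.2%) and on the other in 4.33% (3.66 to 5.12%). Both marks were measured from the same H3K9ac edge, so an H3K9ac edge that was called short would move both values, and its part in the shared side was not tested.

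Pairs built in the same way with H3K27ac show where H3K4ac and H3K9ac stood among the acetylation marks. H3K4ac exceeded H3K27ac by a median of 290 bp in 8718 pairs, with 46.6% extended on 1 side (45.5 to 47.6%) and 12.2% on both (11.5 to 12.9%). Nesting of the narrower mark was less frequent there, at 69.6% (68.6 to 70.6%), than the 78.5% over all H3K4ac and H3K9ac pairs. The edge differences were more spread, with quartiles of 28 and 249 bp on the left. At the 8360 H3K4ac and H3K9ac pairs with H3K27ac over the shared stretch, the left quartiles were 57 and 193 bp. Of those pairs, 36.0% were extended on 1 side and 5.73% on both. H3K9ac exceeded H3K27ac by a median of only 18 bp in 8714 pairs, with H3K27ac inside H3K9ac in 24.5%, H3K9ac inside H3K27ac in 26.1% and 49.5% staggered. These 3 sets share libraries, and the H3K27ac list is the shortest of them, with 9309 peaks.

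The remaining lists were set against the pairs, as the rule for the pairs did not use them. A peak of H3K27ac covered part of the shared stretch in 38.7% of all pairs, H3K27me3 in 9.10%, H3K9me1 in 1.20% and H3K9me3 in 1.37%. H3K27ac was listed at 40.9% of the pairs extended on neither side (40.0 to 41.8%), 36.6% of those extended on 1 side (35.6 to 37.6%) and 33.2% of those extended on both (30.8 to 35.7%). Pairs with H3K27ac had a median H3K9ac percentile of 80.0 and those without of 44.3, and their median width differences were 252 and 266 bp. Of the 8231 pairs extended on 1 side, the 200 bp beyond H3K9ac held an H3K27ac peak on the extended flank in 25.1% and on the other flank in 16.4%. Each flank starts at the H3K9ac edge that also sets which side counts as extended. The part of an H3K9ac edge called short in these shares was not tested.

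H3K27me3, the Polycomb mark, was listed at 8.78% of the pairs extended on neither side, 9.10% of those extended on 1 side and 11.7% of those extended on both (10.2 to 13.5%). It was more frequent at the long extensions. Where H3K4ac reached 500 bp or more beyond H3K9ac, 19.0% of 1417 pairs (17.0 to 21.1%) carried H3K27me3, and where H3K9ac reached 200 bp or more beyond H3K4ac, 16.3% of 784 pairs (13.9 to 19.1%) did. On the flanks of 1-sided pairs it was found at 7.31% of the extended (6.77 to 7.90%) and 6.09% of the other flanks (5.59 to 6.62%), with the same limit as for the H3K27ac flanks. The median H3K4ac percentile of pairs with H3K27me3 was 32.4 and of those without 58.0. The part of this difference in strength in the longer extensions was not tested.

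H3K9me1 was rare at the pairs and more frequent where H3K4ac was extended on both sides. Of the 258 pairs with H3K9me1, 16.7% were extended on both sides (12.6 to 21.7%), against 6.57% of the 21325 without it (6.24 to 6.91%). Their median width difference was 335 bp against 260 bp, and their median H3K4ac percentile was 56.1 against 55.7. Both peaks were wider there, with medians of 1448.5 against 1194 bp for H3K4ac and 1008 against 922 bp for H3K9ac, and the part of width in this difference was not tested. At the extensions of 500 bp or more, 4.66% carried H3K9me1 (3.68 to 5.88%), against 4 of the 784 pairs in which H3K9ac was extended. For H3K9me3 the share extended on both sides was 10.1% of 296 pairs (7.19 to 14.1%) against 6.64% of the others, and the share extended on 1 side was 31.8% (26.7 to 37.3%) against 38.2%.

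**Figure D5:**
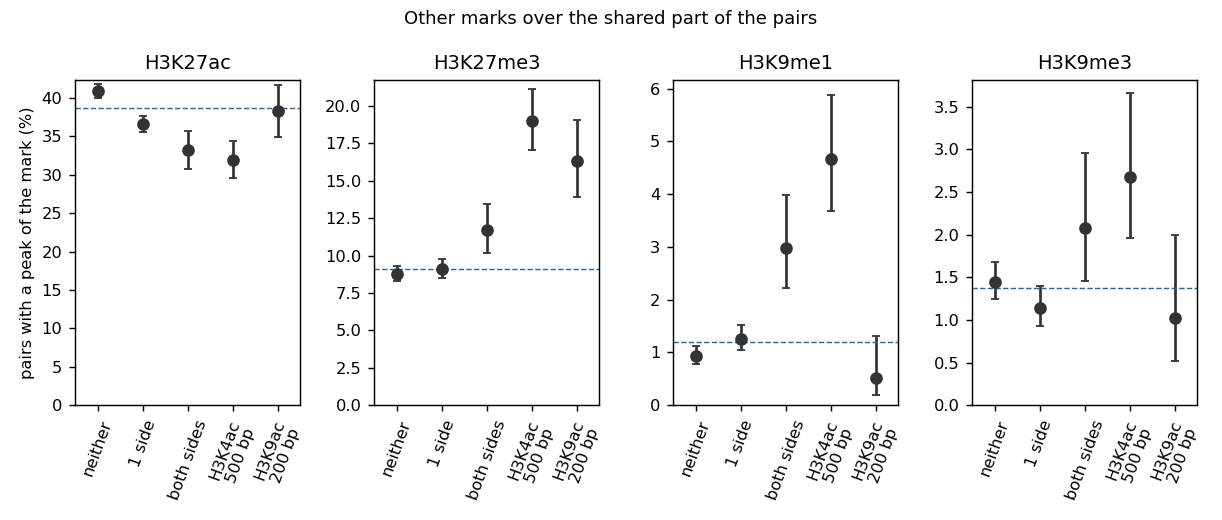
Share of pairs (y axis, %) with a peak of each other mark over the stretch shared by H3K4ac and H3K9ac, for H3K4ac extended by 200 bp or more on neither side, 1 side or both, for H3K4ac extended by 500 bp or more and for H3K9ac extended by 200 bp or more; bars are 95% Wilson intervals and the dashed line is the share of all pairs. H3K27me3 stands at 19.0% and H3K9me1 at 4.66% in the long H3K4ac extensions.

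The longest extensions were in pairs of lower rank. The 1384 pairs with H3K4ac extended by 500 bp or more on 1 side had a median H3K9ac percentile of 40.1 and H3K4ac percentile of 50.3, with median widths of 906.5 and 1824 bp. The 33 pairs extended this far on both sides had medians of 28.7 and 48.8. By contrast, the 784 pairs in which H3K9ac was extended had a median H3K9ac percentile of 54.0 and H3K4ac percentile of 38.8. In these classes the narrower mark had the lower median percentile. At 200 bp this was so for pairs with H3K4ac extended on both sides (51.0 for H3K9ac and 54.6 for H3K4ac) but not on 1 side, where the narrower H3K9ac had 57.2 and H3K4ac 55.7.

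Single pairs show the classes on the ground. Positions are counted from 1, with both end bases included. The strongest pair extended on both sides lay on chromosome 4, with H3K4ac from 16371787 to 16372959 and H3K9ac from 16372004 to 16372737. H3K4ac was 217 bp out on the left and 222 bp on the right, with scores of 929.41 for H3K4ac and 936.88 for H3K9ac. The strongest left-only pair was on chromosome 5, with H3K4ac from 11313953 to 11315736 and H3K9ac from 11314241 to 11315539, 288 bp out on the left and 197 bp on the right. It missed the count on the right by 3 bp. The strongest right-only pair was on chromosome 1, with H3K4ac from 12289572 to 12291802 and H3K9ac from 12289746 to 12291504, 174 bp out on the left and 298 bp on the right. All 3 carried H3K27ac and none of the methylation marks. They were chosen by rank, and the highest H3K9ac percentile of any pair without H3K27ac was 98.96. Their H3K27ac is thus not particular to their classes.

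The strongest pair with all edges within 200 bp held the highest score of both lists. It lay on chromosome 2, with H3K4ac from 28714961 to 28717125 and H3K9ac from 28715087 to 28717052, 126 bp out on the left and 73 bp on the right, and peaks of all the other marks covered it. Among pairs with H3K9ac extended and no H3K4ac extension, the strongest was on chromosome 10, where H3K9ac ran from 19378951 to 19381574 and H3K4ac from 19378764 to 19381188, so that H3K9ac reached 386 bp further on the right.

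The 2 pairs with the largest excess of H3K4ac lay near each other. On chromosome 1 an H3K4ac peak of 5783 bp, from 33510777 to 33516559, held an H3K9ac peak of 733 bp, from 33515587 to 33516319, so that 4810 bp of the extension lay on the left and 240 bp on the right. Their percentiles were 18.8 for H3K4ac and 7.16 for H3K9ac. The second was also on chromosome 1, with H3K4ac from 33584248 to 33590075 and H3K9ac from 33587773 to 33588823, extended by 3525 bp on the left and 1252 bp on the right, at percentiles of 26.6 and 60.2. Both carried H3K27ac and H3K9me1, and the first also H3K27me3. In the opposite direction, an H3K9ac peak of 7992 bp on chromosome 6, from 26941956 to 26949947, at percentile 9.67, passed the right edge of H3K4ac (26941832 to 26947588, percentile 77.9) by 2359 bp. On chromosome 3 the H3K9ac peak from 11768998 to 11772952 (percentile 67.9) also ran on past that of H3K4ac (11768813 to 11770796, percentile 47.1), for a right extension of -2156 bp. In these 2 pairs H3K4ac was 124 and 185 bp out on the left.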

How the data were processed

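The authors aligned the reads with Bowtie, named in the submitters' processing notes, and called peaks for each library with MACS 1.4, named in the lists. The study names a TIGR release of the japonica genome for its gene pairs and RNA reads. The build behind the peak positions, the peak calling settings, the control library, the fragment length assumed by the caller and the read depth are not given in the sources used here. The deposited lists hold positions in bp and the authors' score, which in MACS 1.4 is -10 times the log10 of the p-value. No 2 peaks of 1 list overlap.

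Pairs were formed from all deposited peaks. Shares have 95% Wilson intervals, which cover counting error only, and medians have quartiles. Score percentiles were taken within each list. An extension was at least 200 bp. The pairs, lists and comparisons were chosen with earlier results of these data known. Single pairs were named by a rule: the pair with the highest sum of the score percentiles in each class, and the 2 largest and 2 smallest width differences. The pair finder was tested on simulated data. Alternatives were a minimum score of 100, the 10000 highest-scoring peaks of both lists, an overlap of 50% of the shorter peak, merging within 200 bp, percentiles within 10 points and extensions of 1, 100 and 500 bp. Others were added after seeing the data: shortened H3K4ac peaks, a shifted list and no methylation peaks. Gene orientation was not analysed, since the build of the positions is not named. Values were computed in Python 3.11.15 with pandas 2.3.3, scipy 1.17.1 and numpy 2.4.6, and figures were drawn with matplotlib 3.10.9.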

Additional observations from a re-analysis of the deposited data

How the results depend on the processing

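Of the 12 alternatives, 9 recompute widths, and H3K4ac stayed the wider mark by the median in these. For several of them this was set in advance. Moving a list changes no width, and an overlap of 50% left 21568 of the 21583 pairs. Both shortenings took less than 130.5 bp from each end, about the length that would use up the median difference of 261 bp. The order of the classes did not hold. Both-sided extension was the most frequent class at 1 bp and 1-sided extension at 100 bp. Staggered pairs, at 49.2%, outnumbered nested ones when H3K4ac was shortened by 115 bp. Of 111 values, 50 lay outside the 95% interval of the reported value or, for the number of pairs, far below it, and the intervals of some of these still overlap. No paired analysis was possible because each mark has 1 library and no test was made, and for the same reason no library could be left out. When the lists were limited to scores from 100 up, H3K9ac was nested in 80.1% and H3K4ac extended on both sides in 6.33%. With the 10000 highest-scoring peaks of both lists, 8291 pairs remained, and the width difference was 264 bp, nesting 81.3% and both-sided extension 6.03%. With percentiles within 10 points, 11651 pairs remained, with 257 bp, 80.2% nested, 36.8% extended on 1 side, 5.99% on both and 57.2% on neither. Counting extensions of 1 bp gave 20.3% on 1 side, 78.2% on both and 1.50% on neither. Extensions of 100 bp gave 47.8%, 36.5% and 15.7%, and of 500 bp 6.41%, 0.153% and 93.4%, with 49.5% of the 1-sided extensions on the left. Of the alternatives chosen after seeing the data, shortening H3K4ac by 44 bp at each end gave 172 bp, 64.1% nested, 28.5% extended on 1 side, 2.82% on both and 68.7% on neither. Shortening it by 115 bp gave 30 bp, 29.2%, 16.0%, 0.749% and 83.2%. Both shortenings take a fixed length from every H3K4ac peak, so their median differences follow almost directly from that length. Moving the H3K4ac list left by 3 bp gave 49.4% of the 1-sided extensions on the left. An overlap of 50% of the shorter peak, merging within 200 bp and leaving out pairs with methylation peaks moved no main share. The read depth is unknown, so its part in the edges was not tested.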
